A study of Homo sapiens with 12 samples.

Results

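VM-CUB1 is an established urothelial carcinoma cell line of epithelial character, and HOTAIR is a long noncoding RNA of the HOXC locus. The comparison described here set 3 Affymetrix PrimeView arrays of VM-CUB1_HOTAIR 20, a clone carrying a stable HOTAIR expression plasmid, against 3 arrays of VM-CUB1_LV, a clone carrying the empty vector, and thus used 6 of the 12 arrays of the study. Both clones were selected with puromycin, so the selection was shared by both groups. The other 6 arrays held 5637_HOTAIR 4 and 5637_LV, the same pair of constructs in a second urothelial carcinoma line. All 18132 genes with at least 1 probe set of exactly 1 gene symbol were compared, and the value of a gene was the mean of its probe sets. Each array held a separate RNA preparation of 1 clone, so the p-values measured the spread between preparations, and the effect of HOTAIR and the difference between 2 clones cannot be told apart. HOTAIR itself is not analysed here, and the labels could therefore not be checked on the targeted RNA.

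HOTAIR binds the polycomb repressive complex PRC2, which methylates lysine 27 of histone H3, and the LSD1 demethylase complex, which removes methylation from lysine 4, and it is known for guiding such complexes to genes in trans. High HOTAIR accompanies invasion and metastasis in several carcinomas. An epithelial cell that undergoes epithelial-to-mesenchymal transition (EMT) dissolves its desmosomes and tight junctions, loses its apical and basal sides, exchanges keratins for vimentin and takes up production of a fibrous matrix. The ZEB and SNAIL proteins, which bind the E-box letters CAGGTG or its variant spelled CAGGTA, are repressors of epithelial genes in this process.

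The deposited values were log2 values centred on 0 for every probe set over the 6 VM-CUB1 arrays. A positive value means above the middle of these arrays, and the values hold no expression level, so neither the presence of a transcript nor levels of different genes could be compared. Over the 44988 probe sets with exactly 1 gene symbol, arrays of VM-CUB1_HOTAIR 20 correlated with each other at 0.916 to 0.927. Arrays of VM-CUB1_LV correlated at 0.896 to 0.927. The median standard error (SE) of a log2 fold change, given throughout as VM-CUB1_HOTAIR 20 minus VM-CUB1_LV, was 0.070. Of 22 genes that mark other cell types (fibroblasts, endothelium, leukocytes, muscle, nerve), 2 passed the test used below and both fell, and the list had a median of -0.06. These were CD68 (-1.02) and CD14 (-0.36), and CD14 did not pass by the methods' t-test (adjusted p = 0.018), nor in limma without VM-CUB1_HOTAIR 20 array 1 (adjusted p = 0.011) or array 2 (adjusted p = 0.01).

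With limma and a Benjamini-Hochberg adjusted p under 0.01, 7536 genes differed, which was 41.6% of all genes tested. Those higher in VM-CUB1_HOTAIR 20 made up 21.1% (3827 genes) and those lower 20.5% (3709 genes), and these shares are the background for every gene group below. Most differences were small. Of the genes that rose, 72.8% rose by less than 2-fold, and of those that fell 70.9% fell by less than 2-fold. Rises of 2-fold or more numbered 1041 (5.74% of all genes) and such falls 1081 (5.96%). At 4-fold or more there were 345 rises (1.9%) and 346 falls (1.91%), and at 16-fold or more 58 rises (0.32%) and 78 falls (0.43%). The 2 groups of arrays did not overlap for 58.0% of all genes. Over all 18132 genes the log2 fold changes had a median of -0.03.

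**Figure D1:**
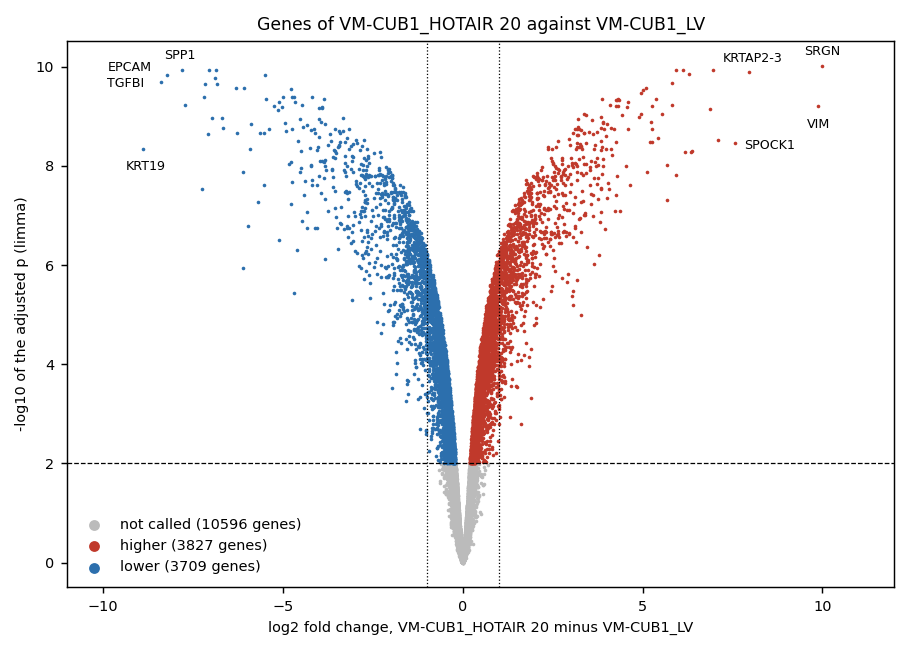
Each point is 1 of the 18132 genes, with the log2 fold change of VM-CUB1_HOTAIR 20 minus VM-CUB1_LV on the x axis and -log10 of the limma adjusted p on the y axis. The dashed line marks an adjusted p of 0.01 and the dotted lines a 2-fold change, and the 4 largest rises and the 4 largest falls are named. The 3827 genes that rose and the 3709 that fell form arms of about the same size.

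Serglycin and vimentin led the rises. SRGN, the core protein of a granule proteoglycan, had centred values of 5.06, 4.92 and 4.95 in VM-CUB1_HOTAIR 20, against -4.98, -5.12 and -4.92 in VM-CUB1_LV. For VIM, the intermediate filament protein of mesenchymal cells, the values were 4.78, 4.76 and 4.77 in VM-CUB1_HOTAIR 20, against -4.74, -5.18 and -5.40 in VM-CUB1_LV. The group means lay over 9 log2 units apart in both genes, while the arrays of a group differed by under 1. VIM rose 938-fold (9.87 on the log2 scale, limma adjusted p = 6.3e-10, SE 0.143), and both of its probe sets rose, by 9.47 and 10.28.

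Other genes among the 20 largest rises encode matrix, cytoskeletal, inflammatory and signalling proteins. SPOCK1, a testican proteoglycan of the matrix, stood at 3.58, 3.75 and 3.70 in VM-CUB1_HOTAIR 20, against -4.28, -3.84 and -3.58 in VM-CUB1_LV, a rise of 191-fold. FN1, which encodes fibronectin, rose 123-fold, with its 8 probe sets spread between 1.91 and 9.47. The mechanosensitive ANKRD1 rose by 7.08 on the log2 scale, the laminin chain gene LAMA1 by 5.82 and the tubulin gene TUBA1A by 5.82. The neutrophil chemokine gene CXCL8 rose by 6.88, the costimulatory receptor gene CD40 by 6.38, and PTX3, a soluble pattern recognition protein, by 5.43. SOCS2, a feedback inhibitor of cytokine and growth hormone signalling, rose by 6.17, the antiviral tether gene BST2 by 6.13 and INHBB, the activin B subunit, by 5.67. The rest of the 20 were KRTAP2-3 (7.94), CEP15 (6.34), TCEAL9 (6.28), SLFN11 (5.94), LDOC1 (5.92), EVA1A (5.67) and CTSL (5.54), the last encoding the lysosomal protease cathepsin L. The 4 probe sets of BST2 did not move alike, and the lowest had a log2 fold change of 0.15.

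Epithelial genes led the falls. KRT19, a keratin of simple epithelia, stood at -4.73, -4.14 and -5.00 in VM-CUB1_HOTAIR 20, against 4.39, 4.22 and 4.14 in VM-CUB1_LV. EPCAM, the epithelial cell adhesion molecule, stood at -4.16, -4.10 and -3.98 in VM-CUB1_HOTAIR 20, against 3.97, 4.19 and 4.22 in VM-CUB1_LV, and fell by 8.21 on the log2 scale (296-fold lower, SE 0.082, adjusted p = 1.4e-10) with all 3 probe sets within -8.25 and -8.15. TGFBI, a matrix protein that binds integrins, stood at -4.48, -4.11 and -4.27 in VM-CUB1_HOTAIR 20, against 4.10, 4.14 and 4.09 in VM-CUB1_LV. In each of these genes the group means lay over 8 log2 units apart, and the groups did not overlap, as was so for 58.0% of all genes.

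The 20 largest falls also held SPP1 (osteopontin, -7.80), CST6 (cystatin E/M, an inhibitor of cathepsins, -7.71), IL1A (interleukin-1 alpha, -7.25) and UCHL1 (a deubiquitinase of neurons, -7.18). Among them were KRT5, the keratin of basal cells (-7.17), the neuropeptide gene GAL (-7.08) and MAL2, needed for transcytosis to the apical membrane (-7.06). MIR205HG, CA2 (carbonic anhydrase II), MLLT11 and ESRP1 fell, with log2 fold changes of -6.98, -6.90, -6.85 and -6.82. SPINT2, an inhibitor of membrane serine proteases, fell by 6.69, LCP1, which encodes the actin bundler L-plastin, fell by 6.67, and UCA1, a noncoding RNA first described in urothelial carcinoma, fell by 6.31. PCOLCE2 (-6.27), ALDH3A1 (-6.11) and CSTA (-6.10) completed the 20. ALDH3A1 varied most among the VM-CUB1_HOTAIR 20 arrays, with centred values of -2.50, -4.01 and -3.82 in VM-CUB1_HOTAIR 20, against 2.87, 2.66 and 2.50 in VM-CUB1_LV. Its SE was 0.345 (limma adjusted p = 1.2e-06), and its groups did not overlap, as was so for 58.0% of all genes.

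**Figure D2:**
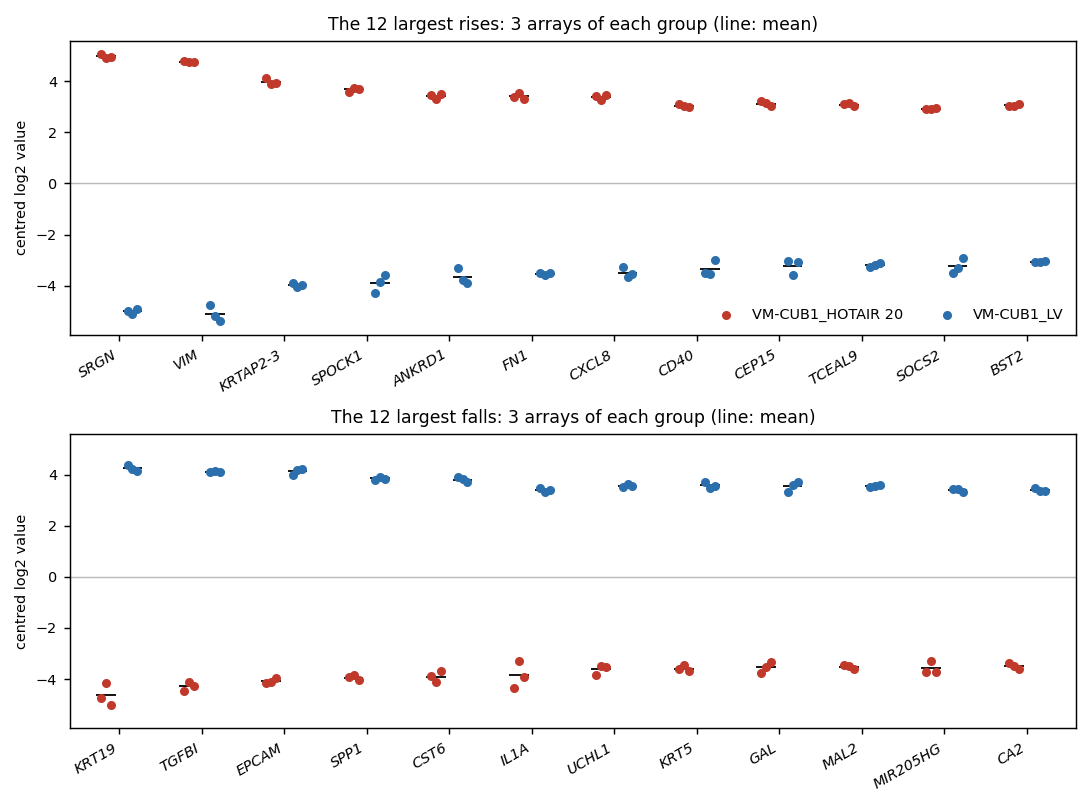
Centred log2 values (y axis) of the 12 genes that rose most (upper panel) and the 12 that fell most (lower panel), with 3 arrays of VM-CUB1_HOTAIR 20 left and 3 of VM-CUB1_LV right for each gene and lines at the means. In all 24 genes the groups lie over 6 log2 units apart in their means, and the arrays of a group lie close to each other, with the widest spread of a group among VM-CUB1_HOTAIR 20 arrays for IL1A.

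MIR205HG is the host gene of miR-205, a microRNA of stratified epithelia that targets ZEB1 and ZEB2. The host transcript stood at -3.72, -3.31 and -3.72 in VM-CUB1_HOTAIR 20, against 3.44, 3.43 and 3.31 in VM-CUB1_LV. The mature microRNA was not measured by the arrays. The host fell while ZEB1 and ZEB2 rose, and a link between these changes was not tested. The RefSeq sequence of miR-205-5p (GRCh38.p14, chr1:209432166-209432187, + strand) is printed with the seed, bases 2 to 8, in capitals.
hsa-miR-205-5p: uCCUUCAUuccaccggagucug

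ZEB1, a repressor of epithelial genes, stood at 2.21, 2.10 and 2.01 in VM-CUB1_HOTAIR 20, against -2.26, -2.18 and -1.99 in VM-CUB1_LV. It rose by 4.25 on the log2 scale (SE 0.086, adjusted p = 3.3e-09), and its 7 probe sets rose by 1.64 to 5.30. ZEB2 rose by 1.83 and TCF4, an E-protein, by 2.50. The other E-box repressors did not go the same way. SNAI2, which encodes Slug, stood at -1.25, -1.19 and -1.24 in VM-CUB1_HOTAIR 20, against 1.19, 1.21 and 1.29 in VM-CUB1_LV and fell by 2.46, TWIST1 fell by 1.86, and SNAI1 had a log2 fold change of 0.13 (adjusted p = 0.34). The TWIST1 arrays spread widely, at -0.98, -0.97 and -0.50 in VM-CUB1_HOTAIR 20, against 1.43, 0.50 and 1.20 in VM-CUB1_LV, and the methods' t-test did not call it (adjusted p = 0.013). Of 19 EMT transcription factor genes, 6 rose and 6 fell, with FOXQ1 (-3.60) and ID2 (-2.10) among those that fell.

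E-box letters were looked up in promoters. RefSeq promoter windows (GRCh38.p14, 300 bases reaching 50 bases past the gene start) were matched by symbol for 14425 of the 18132 genes, and CAGGTG or the variant CAGGTA stood, on either strand, in 26.0% of them. Of the 78 genes that fell by at least 16-fold, 59 had a window. KRT19, EPCAM, MAL2, ESRP1 and SPINT2 were among those without. A match was held by 28 of these 59 windows (47.5%) and by 81 of 204 for falls of 4-fold to 16-fold (39.7%). For falls of 2-fold to 4-fold the count was 158 of 597 (26.5%), and for falls under 2-fold 514 of 2126 (24.2%). For genes that rose the shares were 22.2% under 2-fold, 20.4% at 2-fold to 4-fold and 18.2% at 4-fold to 16-fold. At 16-fold or more the share was 22.7%, or 10 of 44 windows. Genes that were not called had 27.7%. The median GC content of the windows was 61.7%, 66.5%, 66.0% and 65.0% in the classes of falling genes, largest falls first. These shares were not tested, the motif was chosen after the calls were known, and a match is not evidence of binding.

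Epithelial genes that fell and whose windows hold such letters are shown as examples, chosen after their values were seen. CRB3, a subunit of the apical Crumbs complex (GRCh38.p14, as for all windows shown, chr19:6464021-6464320, + strand), has 5 matches in its window and fell by 1.49. RAB25, a small GTPase of apical recycling (chr1:156060910-156061209, + strand), has 2 matches and fell by 5.10. CDS1, an enzyme of phosphatidylinositol synthesis (chr4:84582877-84583176, + strand), has 2 matches and fell by 4.99. DSG2, a desmosomal cadherin (chr18:31497927-31498226, + strand), has 2 matches and fell by 4.66. KRT5 (chr12:52520345-52520644, - strand) has 1 match. Both E-box spellings and their reverse complements are in capitals, and each window runs 5′ to 3′ along its gene.
CRB3: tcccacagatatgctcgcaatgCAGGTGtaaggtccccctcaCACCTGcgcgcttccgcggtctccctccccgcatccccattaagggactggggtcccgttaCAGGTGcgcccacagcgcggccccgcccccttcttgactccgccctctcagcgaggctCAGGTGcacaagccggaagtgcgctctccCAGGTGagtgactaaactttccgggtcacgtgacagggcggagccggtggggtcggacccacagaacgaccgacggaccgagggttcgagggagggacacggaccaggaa
RAB25: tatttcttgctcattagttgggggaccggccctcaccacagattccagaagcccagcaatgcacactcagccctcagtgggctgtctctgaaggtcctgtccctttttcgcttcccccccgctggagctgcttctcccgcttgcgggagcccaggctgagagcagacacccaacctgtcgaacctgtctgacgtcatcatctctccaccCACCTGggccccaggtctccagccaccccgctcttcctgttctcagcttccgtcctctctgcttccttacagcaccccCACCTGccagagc
CDS1: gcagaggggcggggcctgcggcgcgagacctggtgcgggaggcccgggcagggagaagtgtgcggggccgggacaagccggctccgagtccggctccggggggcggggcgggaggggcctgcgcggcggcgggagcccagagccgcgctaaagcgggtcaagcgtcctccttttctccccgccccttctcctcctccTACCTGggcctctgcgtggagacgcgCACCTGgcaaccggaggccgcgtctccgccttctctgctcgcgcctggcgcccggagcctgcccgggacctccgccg
DSG2: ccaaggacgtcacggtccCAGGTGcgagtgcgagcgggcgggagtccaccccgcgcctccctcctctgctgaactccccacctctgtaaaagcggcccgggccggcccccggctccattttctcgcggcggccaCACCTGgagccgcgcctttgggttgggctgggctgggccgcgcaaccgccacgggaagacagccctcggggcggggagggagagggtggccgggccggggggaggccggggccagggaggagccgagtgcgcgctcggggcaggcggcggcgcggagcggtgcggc
KRT5: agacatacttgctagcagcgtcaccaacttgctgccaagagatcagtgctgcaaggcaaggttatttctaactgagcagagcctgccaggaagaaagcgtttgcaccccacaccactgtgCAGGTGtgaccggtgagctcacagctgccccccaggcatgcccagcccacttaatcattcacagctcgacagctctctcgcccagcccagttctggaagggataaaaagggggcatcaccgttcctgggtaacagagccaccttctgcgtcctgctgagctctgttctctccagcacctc

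Junction genes of epithelia fell broadly. Of 14 measured desmosome genes, 9 fell and 0 rose, with a median log2 fold change of -1.20. DSG2 stood at -2.43, -2.28 and -2.40 in VM-CUB1_HOTAIR 20, against 2.26, 2.23 and 2.36 in VM-CUB1_LV and DSC2, its partner cadherin, at -2.07, -2.01 and -1.93 in VM-CUB1_HOTAIR 20, against 1.91, 1.90 and 1.89 in VM-CUB1_LV. The plaque proteins JUP (plakoglobin) and DSP (desmoplakin) fell, with log2 fold changes of -3.16 and -2.73. Tight junction genes fell in 12 of 22 cases, with a median of -0.35, although without the probe sets that may share probes the number that fell was 7. CLDN7, a claudin of most epithelia, stood at -3.40, -3.19 and -2.55 in VM-CUB1_HOTAIR 20, against 2.76, 2.55 and 2.60 in VM-CUB1_LV, and CLDN4 and MARVELD3 fell, with log2 fold changes of -4.19 and -4.21. CLDN1 was the only called member that rose, by 4.15, and its arrays stood at 2.05, 1.96 and 2.08 in VM-CUB1_HOTAIR 20, against -2.27, -2.18 and -1.91 in VM-CUB1_LV. CDH1, which encodes E-cadherin, fell by 3.79, with one probe set at -6.40 and the other at -1.19.

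Polarity and surface genes moved the same way on balance. Of 26 apicobasal polarity genes, 12 fell and 5 rose (median -0.12). RAB25 stood at -2.84, -2.19 and -3.22 in VM-CUB1_HOTAIR 20, against 2.57, 2.30 and 2.19 in VM-CUB1_LV and MAL2 at -3.45, -3.50 and -3.61 in VM-CUB1_HOTAIR 20, against 3.50, 3.54 and 3.58 in VM-CUB1_LV, while PARD6A and PALS1, of the PAR and Crumbs complexes, rose by 1.85 and 1.60. Of 22 epithelial surface and protease genes, 11 fell and CDCP1 alone rose (0.30). Besides EPCAM and SPINT2, the falls included CD24, a mucin-like adhesion molecule (-3.28), and SPINT1, an inhibitor of matriptase (-2.10). Among 32 adhesion genes of the immunoglobulin family 10 fell and 3 rose, led by MPZL2 (-3.29), a homophilic adhesion protein of epithelia, and the neural adhesion gene NRCAM (-2.65).

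Regulators of the epithelial state fell in 10 of 21 cases and rose in 4. The splicing regulators ESRP1 and ESRP2, which set epithelial exon choice, fell together. ESRP1 stood at -3.55, -3.29 and -3.50 in VM-CUB1_HOTAIR 20, against 3.42, 3.34 and 3.35 in VM-CUB1_LV, and ESRP2 at -2.37, -2.66 and -2.45 in VM-CUB1_HOTAIR 20, against 2.45, 2.49 and 2.37 in VM-CUB1_LV. OVOL2, a repressor of ZEB1, fell by 3.51, ELF3, an epithelial ETS factor, fell by 3.20, and RBM47, another splicing regulator, fell by 2.57. The 4 that rose were FOXA1, TFAP2C, GATA3 and PAX8.

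Basal markers of the urothelium fell, and luminal markers went both ways. Of 17 basal markers, 12 fell and CD44 alone rose (0.51; without VM-CUB1_LV array 3, 2 genes rose), with a median of -1.62. KRT5 stood at -3.62, -3.47 and -3.68 in VM-CUB1_HOTAIR 20, against 3.70, 3.47 and 3.57 in VM-CUB1_LV, and CDH3 (P-cadherin) fell by 4.18, DSC3 fell by 3.82 and DSG3 fell by 3.28. The 24 luminal markers divided into 7 that rose and 8 that fell, with a median of -0.12, and KRT19, ESRP1 and ELF3 were the largest of the falls. PPARG, a nuclear receptor of luminal differentiation, stood at 2.43, 2.49 and 2.43 in VM-CUB1_HOTAIR 20, against -2.45, -2.59 and -2.44 in VM-CUB1_LV. It rose 30.8-fold (SE 0.061, adjusted p = 3.4e-10). FOXA1 rose by 4.25 on the log2 scale, its 2 probe sets by 2.02 and 6.49, and GATA3 8.24-fold. The uroplakins, which form the plaques of the apical surface, did not follow. UPK2, UPK3A and UPK1B did not pass (-0.16, -0.18 and 0.08), and UPK1A fell by 0.43. KRT8 and KRT18, the keratin pair of simple epithelia, rose slightly, by 0.37 and 0.71.

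Keratinisation genes lay near 0. Of 31 genes of the cornified envelope, 7 fell (4 without VM-CUB1_LV array 2), 0 rose and 24 were not called, and the 3 large falls were CSTA (cystatin A), SPRR1B (-3.86) and PPL (periplakin, -3.43). Of 15 kallikreins only KLK14 was called, at -0.40, and it was not called without VM-CUB1_HOTAIR 20 array 1 (-0.36) or array 2 (-0.39). Serpins rose in 4 of 21 cases and fell in 4, close to the shares of all genes. SERPINE2, an inhibitor of thrombin and plasminogen activators, rose by 3.20, and SERPINB5, which encodes maspin, fell by 2.86.

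**Figure D3:**
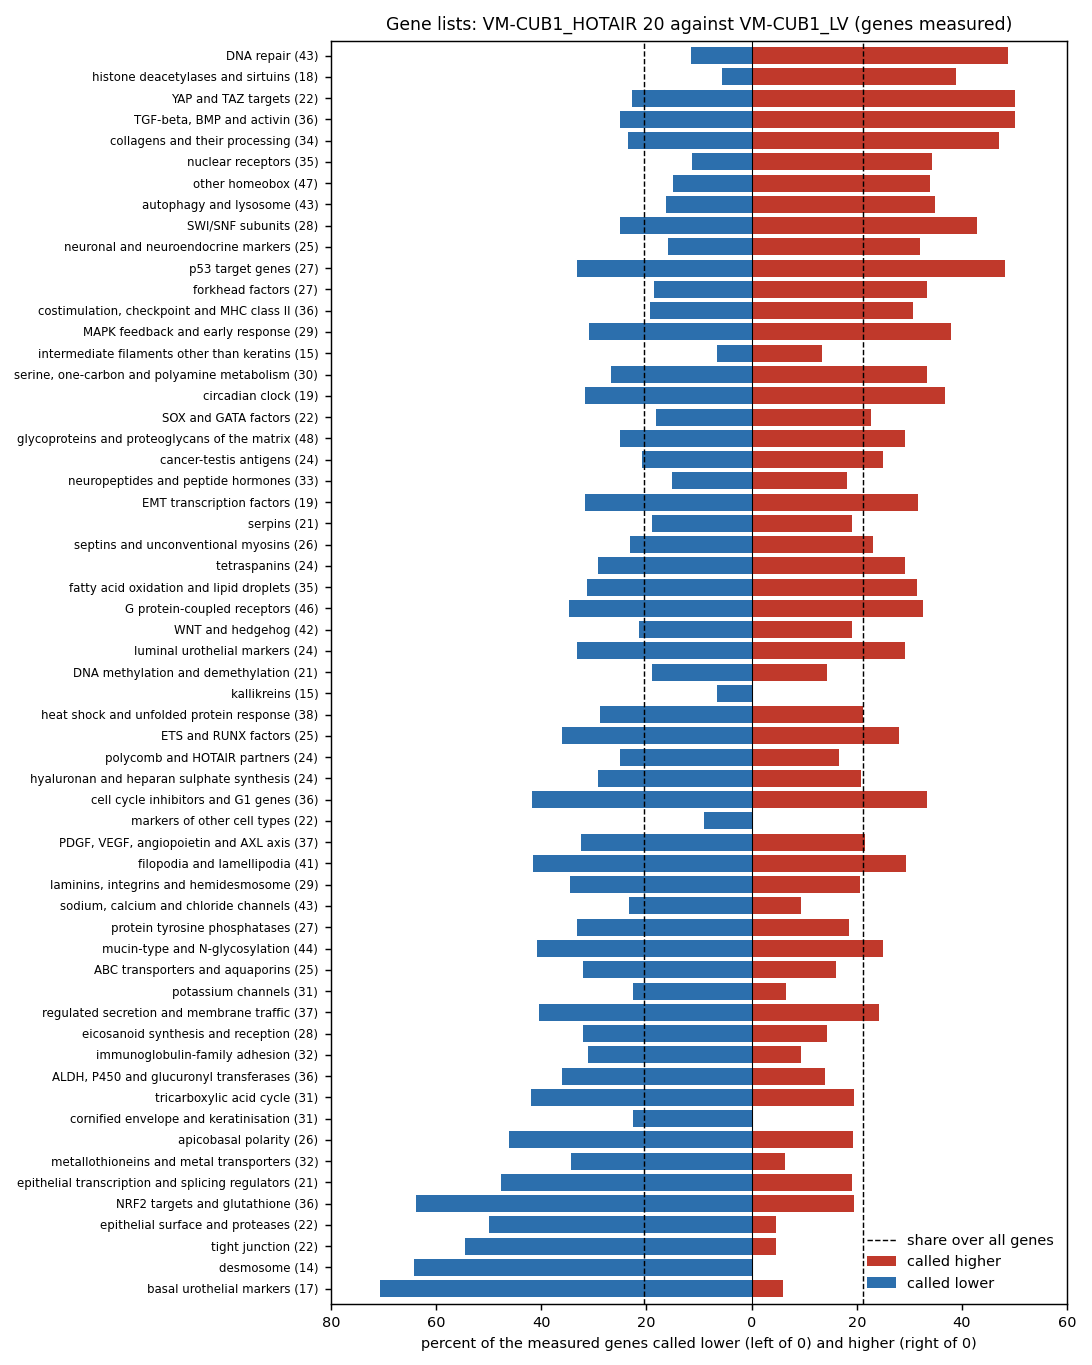
Percent of the measured genes of each list (rows, with the number measured in brackets) called higher in VM-CUB1_HOTAIR 20, to the right of 0, and called lower, to the left, for the 59 lists with at least 10 genes. Dashed lines mark the shares over all genes, 21.1% higher and 20.5% lower. Rows are ordered by the difference of the shares, with basal urothelial markers (70.6% lower) and desmosome genes (64.3% lower) at the bottom and DNA repair genes (48.8% higher) at the top.

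Listed genes for collagens and their processing rose more often than they fell. Of 34, 16 rose (47.1%) and 8 fell (23.5%). Among all 44 measured genes with COL before the first digit of their symbol, 10 rose (22.7%) and 4 fell (9.09%). That share of rises was close to the share of all genes. COL4A2, a chain of the basement membrane collagen IV, stood at 2.07, 1.95 and 1.96 in VM-CUB1_HOTAIR 20, against -2.06, -2.06 and -1.90 in VM-CUB1_LV, and COL4A1, COL13A1 and COL5A2 rose by 2.93, 3.41 and 2.59. The probe sets of COL4A1 ranged from 0.09 to 5.25. Genes of collagen processing and cross-linking were among the falls. PCOLCE2, an enhancer of procollagen cleavage, stood at -2.97, -3.47 and -3.36 in VM-CUB1_HOTAIR 20, against 2.97, 2.99 and 3.04 in VM-CUB1_LV, and LOXL4 and LOX, both lysyl oxidases, fell, with log2 fold changes of -4.05 and -3.07. COL7A1, the anchoring fibril collagen beneath stratified epithelia, fell by 3.06. COL1A1 and COL3A1, the fibrillar collagens of fibroblasts, did not pass (0.04 and 0.04).

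Matrix glycoproteins split between strong rises and strong falls. Of 48 genes, 14 rose and 12 fell, and the median was -0.03. Besides SRGN, SPOCK1 and FN1, SPARC, a counter-adhesive matrix protein, rose by 4.19, with all 8 probe sets between 2.16 and 6.28. Against these stood TGFBI and SPP1, and CCN3 and THBS1 (thrombospondin 1) fell, with log2 fold changes of -2.55 and -3.08. Of 29 laminin, integrin and hemidesmosome genes, 6 rose and 10 fell. LAMA1 stood at 2.87, 2.89 and 2.94 in VM-CUB1_HOTAIR 20, against -2.87, -2.87 and -3.03 in VM-CUB1_LV, while ITGB4, the integrin of hemidesmosomes, and LAMB3, a laminin chain of epithelia, fell, with log2 fold changes of -2.04 and -2.15. Of 24 genes of hyaluronan and heparan sulphate, 5 rose and 7 fell. HAS2, a hyaluronan synthase, rose by 3.29, and the heparan sulphate enzymes HS3ST1, HS6ST2 and HPSE fell, with log2 fold changes of -4.04, -3.54 and -3.37.

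Among 15 intermediate filament genes other than keratins, VIM and SYNM (0.66) rose and LMNA fell (-1.02), while the remaining 12 were not called (without VM-CUB1_HOTAIR 20 array 2, 2 fell). Genes of filopodia and lamellipodia changed in both directions, 12 higher and 17 lower of 41. WASF3, an activator of the ARP2/3 complex, rose by 3.38 and its partner CYFIP2 by 2.43, while the formin gene DAAM1 fell by 2.26 and FSCN1, the actin bundler fascin, fell by 1.89. Septins and unconventional myosins rose in 6 of 26 cases and fell in 6 (23.1% each), close to the shares of all genes. MYO1D, a class I myosin, fell by 4.10. Of 24 tetraspanins, 7 rose and 7 fell, and TSPAN4 rose most (3.21).

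Transcription factor families differed in balance. Of 35 nuclear receptors, 12 rose and 4 fell, with NR3C2, the mineralocorticoid receptor, at 1.79 and VDR, the vitamin D receptor, at -2.16. Of 27 forkhead genes, 9 rose and 5 fell, FOXP1 by 4.28 over 12 probe sets that ranged from -0.13 to 7.19. Of 25 ETS and RUNX genes, 7 rose and 9 fell. ETV5 (3.90), FLI1 (2.84) and ETV1 (2.12) were the largest rises, and ELF3 and EHF (-2.32), both expressed in epithelia, the largest falls. Of 22 SOX and GATA genes, 5 rose (22.7%) and 4 fell (18.2%), close to the shares of all genes. SOX4 and SOX9 rose by 2.40 and 1.90, and SOX7 fell by 3.93. Of 47 homeobox genes outside the HOX clusters, 16 rose and 7 fell. IRX2 rose most (3.38), and SATB1 fell most (-2.66), a fall that came to -0.10 without the probe sets that may share probes.

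Growth factor and feedback genes followed. Targets and brakes of MAP kinase signalling rose in 11 of 29 cases and fell in 9. ETV5 stood at 1.93, 1.97 and 1.82 in VM-CUB1_HOTAIR 20, against -2.04, -1.91 and -2.03 in VM-CUB1_LV, and DUSP1 and DUSP6, both MAP kinase phosphatases, rose by 3.06 and 2.90. DUSP10 and FOSL1 fell, with log2 fold changes of -2.77 and -1.86. The TGF-beta, BMP and activin list had 18 of 36 genes higher and 9 lower, with a median of 0.29. BMP4 rose by 3.07 and BMP2 fell by 3.98, so these 2 ligands of the same receptors went opposite ways. The values were 1.20, 1.21 and 1.32 in VM-CUB1_HOTAIR 20, against -1.20, -2.06 and -2.21 in VM-CUB1_LV, for BMP4, and -1.94, -2.04 and -2.03 in VM-CUB1_HOTAIR 20, against 1.99, 1.92 and 2.03 in VM-CUB1_LV, for BMP2. The binding protein gene FSTL1, the pseudoreceptor gene BAMBI and the BMP antagonist gene NOG rose by 4.13, 3.16 and 2.49.

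YAP and TAZ target genes rose in 11 of 22 cases and fell in 5, with ANKRD1, DLC1 (4.26) and CCN2 (3.74) leading the rises and F3 (-2.74) and IGFBP3 (-2.70) the falls. Of 42 WNT and hedgehog genes, 8 rose and 9 fell, shares close to those of all genes, and the receptor gene FZD8 moved most (4.32). In the list of PDGF, VEGF, angiopoietin and AXL genes 8 of 37 rose and 12 fell. VEGFC, a lymphangiogenic factor, and BDNF, a neurotrophin, rose by 3.97 and 3.86, and ANGPTL4, an inhibitor of lipoprotein lipase, fell by 3.17. Among G protein-coupled receptors, 15 of 46 rose and 16 fell. S1PR3, a sphingosine-1-phosphate receptor, and F2R, the thrombin receptor, rose by 3.66 and 3.39, and the latrophilin gene ADGRL2 fell by 4.32. Of 28 eicosanoid genes, 4 rose and 9 fell. PTGS2, the inducible cyclooxygenase, rose by 1.76 and PTGS1, the constitutive one, fell by 1.94.

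Channel genes fell about as often as all genes and were seldom called higher. Of 31 potassium channel genes, 2 rose (6.45%) and 7 fell (22.6%), and the 2 that rose were the inward rectifiers KCNJ2 (2.75) and KCNJ8 (2.43). Of 43 sodium, calcium and chloride channel genes, 4 rose (9.3%) and 10 fell (23.3%). ANO1, a calcium-activated chloride channel, stood at -2.18, -2.23 and -2.63 in VM-CUB1_HOTAIR 20, against 2.11, 2.12 and 2.22 in VM-CUB1_LV. Of 32 metallothionein and metal transporter genes, 2 rose and 11 fell. STEAP1 and STEAP2, neighbouring genes of the STEAP family on chromosome 7, fell, with log2 fold changes of -3.91 and -3.96. Of 25 ABC transporter and aquaporin genes, 4 rose and 8 fell. ABCA1 and ABCG1, exporters of cholesterol, fell, with log2 fold changes of -2.97 and -2.81.

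Antioxidant genes fell. Of 36 NRF2 target and glutathione genes, 23 fell and 7 rose, and the median was -0.66. GPX2, a glutathione peroxidase of epithelia, fell by 5.91, and GPX3, the secreted peroxidase, stood at -2.78, -2.59 and -2.64 in VM-CUB1_HOTAIR 20, against 2.91, 2.56 and 2.69 in VM-CUB1_LV. AKR1C1, an aldo-keto reductase, stood at -2.61, -2.30 and -2.40 in VM-CUB1_HOTAIR 20, against 2.39, 2.27 and 2.28 in VM-CUB1_LV, and GSTO2 fell by 2.86, with probe sets from -5.33 to -0.62. UGDH, GSTM3 and TXNRD1 rose, by 1.86, 1.21 and 0.70. AKR1C1 has close paralogs whose transcripts can share probes. Of 36 aldehyde dehydrogenase, cytochrome P450 and UDP-glycosyltransferase (UGT) genes, 13 fell and 5 rose. ALDH2, the mitochondrial enzyme that clears acetaldehyde, CYP4F11 and UGT8 fell, with log2 fold changes of -3.90, -4.45 and -4.68, and UGT2B7 rose by 2.48.

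Fat and central carbon genes changed without 1 direction. Of 35 genes of fatty acid oxidation and lipid droplets, 11 rose and 11 fell. MGLL, which releases fatty acids from monoglycerides, rose by 4.10, and CPT1A, the gate of mitochondrial fatty acid import, stood at -1.74, -1.59 and -1.74 in VM-CUB1_HOTAIR 20, against 1.65, 1.61 and 1.65 in VM-CUB1_LV. Of 31 genes of the tricarboxylic acid cycle and its feeders, 13 fell and 6 rose, most by less than 2-fold. The glycosyltransferase list had 18 of 44 genes lower and 11 higher. FUT8, which adds the core fucose of N-glycans, rose by 3.53, and GALNT3, an initiator of mucin-type glycans, fell by 3.46.

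Genes of chromatin proteins changed little in size. The list of polycomb subunits and partners of HOTAIR, which also included KDM6A, held 24 genes, of which 6 fell and 4 rose. Without VM-CUB1_HOTAIR 20 array 1, VM-CUB1_HOTAIR 20 array 2 or VM-CUB1_LV array 2, 3 fell. EZH2, the methyltransferase of PRC2, did not pass (0.11, adjusted p = 0.19), SUZ12 and EED, its core partners, fell, with log2 fold changes of -0.27 and -0.46, and KDM1A, which encodes LSD1, was higher by 0.38. The exception was KDM6A, which is neither a polycomb subunit nor a known partner of HOTAIR. This gene of the X chromosome encodes a demethylase of histone H3 lysine 27. It stood at -1.34, -1.37 and -1.41 in VM-CUB1_HOTAIR 20, against 1.47, 1.34 and 1.45 in VM-CUB1_LV and fell by 2.80 (SE 0.058, adjusted p = 3.9e-09), with both probe sets between -2.94 and -2.66. Among 21 genes of DNA methylation and demethylation 3 rose (5 without VM-CUB1_LV array 1) and 4 fell, and 0 of them changed by 2-fold. Of 18 histone deacetylase and sirtuin genes, 7 rose and 1 fell, and of 28 SWI/SNF genes 12 rose and 7 fell, with DPF3 alone at 2-fold or more (1.16).

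DNA repair genes rose in 21 of 43 cases and fell in 5, with a median of 0.20. MGMT, which removes alkyl groups from guanine, stood at 2.46, 2.48 and 2.49 in VM-CUB1_HOTAIR 20, against -2.46, -2.62 and -2.52 in VM-CUB1_LV. It rose 32.2-fold (SE 0.060, adjusted p = 2.9e-10), while the next largest rises were PARP2 (1.22) and RAD54L (1.14). ATR, a checkpoint kinase, fell by 1.02. Of 27 p53 target genes, 13 rose and 9 fell. PMAIP1, the proapoptotic NOXA, rose by 3.30, and the death receptor gene TNFRSF10A fell by 1.59. In the list of cell cycle inhibitors and G1 genes, 12 of 36 rose and 15 fell. CCNA1, a cyclin of the germ line, rose by 3.96 and CCNE2 by 1.39, and CDK6, CDKN2A and CCND1 fell, with log2 fold changes of -2.09, -1.53 and -1.34. Of 43 autophagy and lysosome genes, 15 rose and 7 fell. CTSL stood at 2.82, 2.67 and 2.67 in VM-CUB1_HOTAIR 20, against -2.96, -2.82 and -2.67 in VM-CUB1_LV, and WIPI1, an early autophagosome protein, rose by 2.37. In the heat shock and unfolded protein list 8 of 38 rose and 11 fell, with HSPA1B (-2.43) and its co-chaperone BAG3 (-1.84) lowest.

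Neuronal and immune surface genes gave single strong members. DPYSL3, a regulator of growth cones, rose by 5.20, PEG10 by 3.62 and the granin gene SCG2 by 2.95, and 8 of 25 neuronal and neuroendocrine genes rose in all, against UCHL1, GAL, CPE (-3.60) and GAP43 (-0.55), which fell. GAP43 was not called with the median of its probe sets (-0.21). Of 36 costimulation, checkpoint and MHC class II genes, 11 rose and 7 fell. CD40 stood at 3.10, 3.03 and 2.98 in VM-CUB1_HOTAIR 20, against -3.50, -3.55 and -2.98 in VM-CUB1_LV, and HLA-DMA and CD47 fell, with log2 fold changes of -1.31 and -1.16. HLA-DPB1, another class II gene, rose by 1.11, but had a log2 fold change of -0.0741 without the probe sets that may share probes. Cancer-testis genes rose in 6 of 24 cases and fell in 5, close to the shares of all genes. MAGEC1, MAGEA10 and MAGEA12 fell, with log2 fold changes of -5.46, -4.68 and -4.61, and MAGEB2 and the ubiquitous MAGED1 rose by 2.45 and 2.59. MAGEA10 stood at -3.13, -1.88 and -3.29 in VM-CUB1_HOTAIR 20, against 1.92, 1.94 and 1.88 in VM-CUB1_LV, with 1 VM-CUB1_HOTAIR 20 array above the others.

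A second view used no chosen list. Genes were grouped by the letters that open their symbol, which gave 139 families with at least 15 measured genes. Zinc finger genes (ZNF) were the largest family. Of 491, 201 rose (40.9%) and 53 fell (10.8%), with a median log2 fold change of 0.21. On chromosome 19, where many lie in clusters, 122 of 235 ZNF genes rose and 10 fell, and on the other chromosomes 79 of 256 rose and 43 fell. The 1058 other genes of chromosome 19 had 246 higher and 104 lower. The PHF genes, named for the PHD finger that reads histone tails, had 11 of 18 higher and 0 lower. Among ZDHHC palmitoyl transferases 10 of 23 fell and 2 rose, among GALNT transferases 8 of 16 fell and 3 rose, and among DHX helicases likewise 8 of 16 fell and 3 rose. Some families were rarely called. Of 341 olfactory receptor genes (OR), 20 were called (5.87%, 17 of them lower), and of 26 TAS taste receptor and 25 DEFB defensin genes 0 were called.

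Calls were uneven over chromosomes. Of 570 measured genes of chromosome 14, 231 rose (40.5%) and 48 fell (8.42%), while of 829 on chromosome 7, 105 rose (12.7%) and 327 fell (39.4%). Chromosomes 22, 18 and 19 also leaned upward, with 37.1%, 34.4% and 28.5% higher, and chromosomes 4, 8 and 13 downward, with 34.8%, 31.5% and 30.5% lower. The median of the genes of chromosome 7 was -0.09, -0.09 and -0.09 on the 3 VM-CUB1_HOTAIR 20 arrays, against 0.09, 0.12 and 0.09 on the 3 VM-CUB1_LV arrays. For chromosome 14 these medians were 0.08, 0.08 and 0.07 on the VM-CUB1_HOTAIR 20 arrays, against -0.09, -0.07 and -0.09 on the VM-CUB1_LV arrays. The groups did not overlap on either chromosome, but this does not set these 2 apart. The groups did not overlap on chromosome 6 either, where 19.4% of genes rose and 18.4% fell. In 5637_HOTAIR 4 against 5637_LV, 29.9% of all genes passed (14.7% higher and 15.2% lower). There, chromosome 7 had 18.1% higher and 12.4% lower, and chromosome 14 had 25.3% higher and 19.5% lower. Chromosomes 8 and 13 leaned downward in 5637 too, with 34.6% and 36.1% lower and 9.39% and 4.59% higher. Chromosome 4 had 11.3% lower there, and chromosomes 22, 18 and 19 had 11.4%, 14.5% and 12.4% higher. The difference between the lines was not tested for chromosomes.

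**Figure D4:**
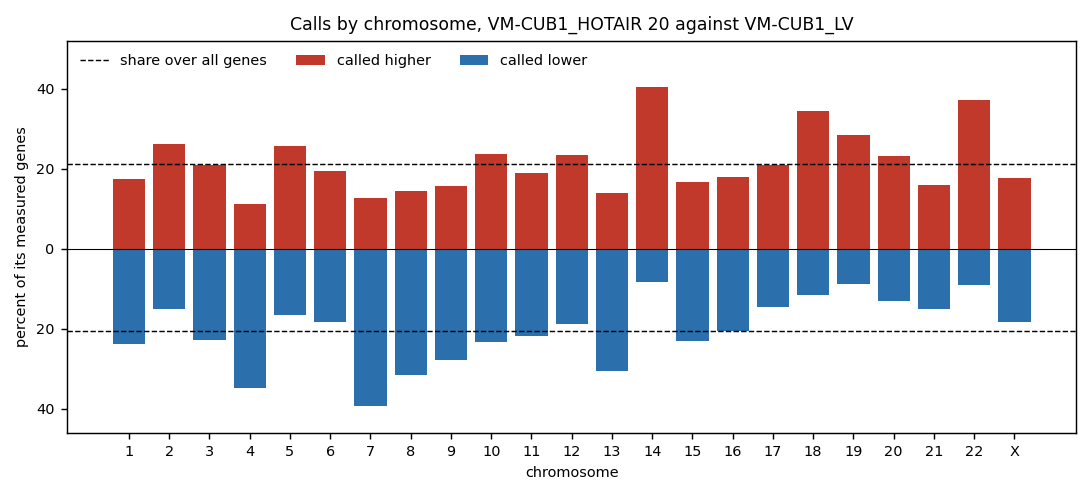
Percent of the measured genes of each chromosome (x axis) called higher in VM-CUB1_HOTAIR 20, above 0, and called lower, below 0. Dashed lines mark the shares over all genes (21.1% and 20.5%), and chromosome 14 (40.5% higher) and chromosome 7 (39.4% lower) lie farthest from them.

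Some genes that changed alike were neighbours. Runs of at least 4 neighbouring measured genes that all changed by 2-fold or more in 1 direction occurred 13 times, 4 higher and 9 lower, and 8 times without the probe sets that may share probes. On chromosome 11, LRP5, PPP6R3, GAL, TESMIN, CPT1A and MRPL21 all fell, with log2 fold changes of -7.08 to -1.12. On chromosome 19, ZNF493, ZNF429, ZNF100, ZNF43, ZNF208 and ZNF257 all rose, by 1.05 to 3.27, of which ZNF208 did not pass the methods' t-test (adjusted p = 0.031). On chromosome 1 the guanylate-binding genes GBP3, GBP1 and GBP2 rose with KYAT3 and RBMXL1, and on chromosome 6 TAP2, PSMB8, TAP1 and PSMB9, neighbours in the MHC that prepare peptides for class I, fell (-1.94 to -1.11). Chromosome 7 held 4 of the runs, among them RBM48, CDK6, SAMD9 and SAMD9L, which had log2 fold changes of -3.25 to -1.03.

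Wider stretches were found with a running median over 41 neighbouring genes, a rule set after the calls were known. Of 82 genes between GAL3ST3 and CTTN on chromosome 11, 55 fell and 3 rose, with a median log2 fold change of -0.59. This stretch holds GAL, MYEOV (-5.53), ANO1, CPT1A, CCND1 and CTTN (-1.38). Between SEMA3D and CYP51A1-AS1 on chromosome 7, 18 of 26 genes fell and 0 rose (median -0.83), and between AP1S1 and DUS4L 29 of 49 fell and 4 rose (median -0.60). Chromosome 14 held the longest of these stretches of rises, between FOXA1 and CCDC198, where 50 of 81 genes rose and 7 fell (median 0.52). Of 22 genes between ONECUT2 and ZCCHC2 on chromosome 18, 16 rose and 0 fell (median 0.86), with CCBE1 highest (5.12), and of 27 between ZNF14 and ZNF91 on chromosome 19, 21 rose and 0 fell (median 0.94). In 5637 the medians of these stretches were 0.04 (chromosome 11), -0.03 and -0.06 (chromosome 7), 0.31 (chromosome 14), -0.01 (chromosome 18) and 0.00 (chromosome 19). The stretches found on chromosome 1 had negative medians in both lines. Between HSD11B1 and SPATA17 the median was -0.48 in VM-CUB1 and -0.41 in 5637. From RAB4A to PGBD5 it was -0.72 and -0.46, and from ARV1 to PCNX2 -0.28 and -0.35.

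**Figure D5:**
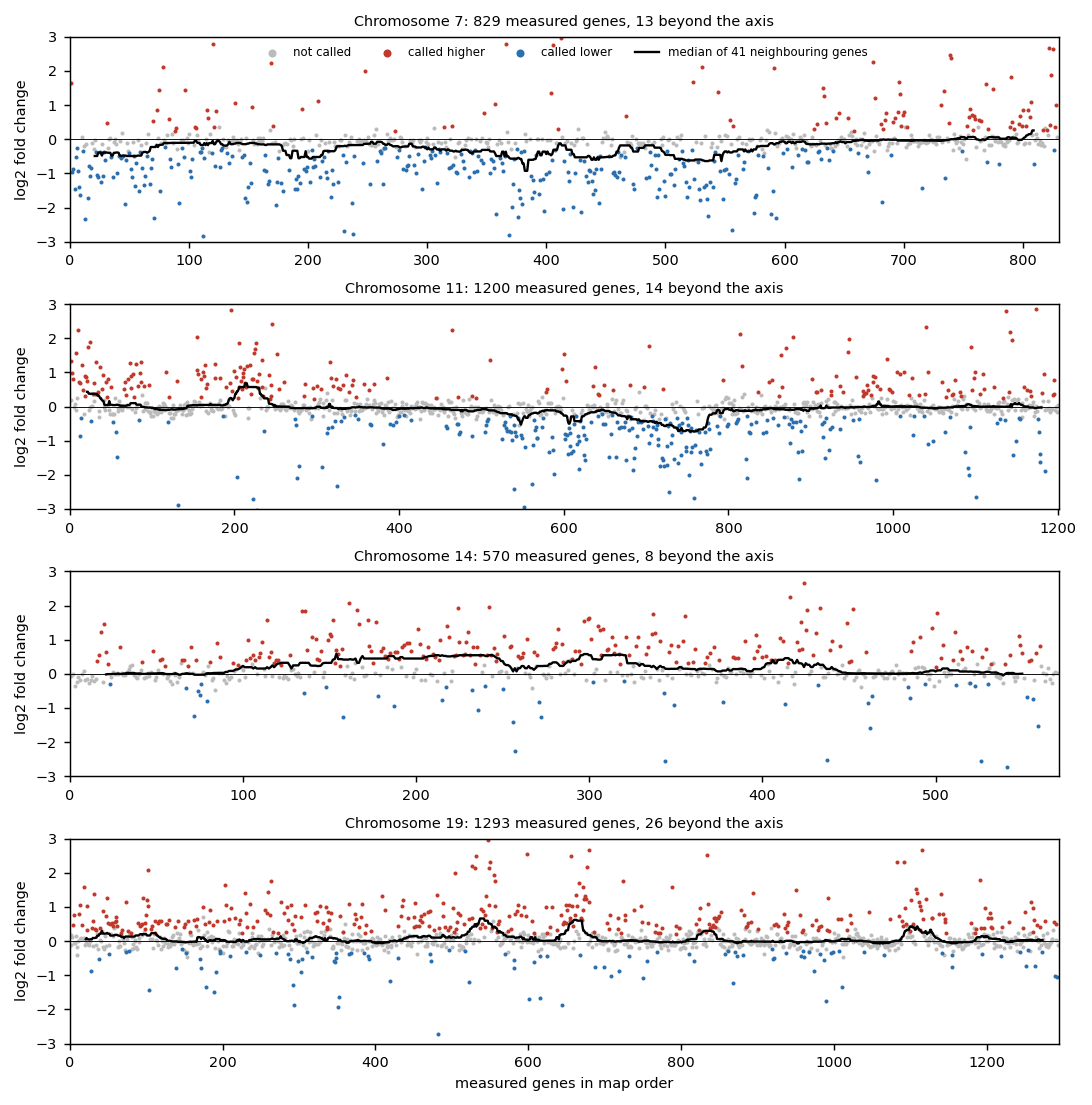
Log2 fold changes (y axis, VM-CUB1_HOTAIR 20 minus VM-CUB1_LV) of the measured genes of chromosomes 7, 11, 14 and 19 in map order (x axis), coloured by call, with the median of 41 neighbouring genes as a line. The line lies below 0 over most of chromosome 7 and over the middle of chromosome 11, and above 0 over the middle of chromosome 14 and at single clusters of chromosome 19.

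Probe sets of a gene did not always move alike. Of 5524 called genes with several probe sets, 694 had probe sets on both sides of 0 and 201 had probe sets at least 8-fold apart. Single probe sets passed in 37.1% of 44988 cases, and in 160 genes at least 1 probe set rose and another fell. MLPH, a carrier of melanosomes and secretory granules, had 7 probe sets from -0.55 to 5.06. EPB41L5, a regulator of polarity and adhesion, had probe sets from -1.76 to 2.34, and CFAP20DC from -1.58 to 3.01. DST, a cytoskeletal linker with epithelial and neuronal isoforms, was not called as a gene (0.21, adjusted p = 0.014), while its 8 probe sets ranged from -1.75 to 1.15. In all, 1127 genes that were not called held at least 1 probe set that was. Which transcripts the probe sets read is not given in the sources used here.

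The 4 largest rises and the 4 largest falls were compared with the same contrast in 5637 by an interaction over all 12 arrays, in which 42.0% of all genes passed. All 8 differed between the lines. SRGN had a log2 fold change of 9.98 in VM-CUB1 and of -0.03 in 5637, a difference of 10.01 (SE 0.191, limma adjusted p = 3.1e-13). VIM had a log2 fold change of 9.87 in VM-CUB1 and of -0.34 in 5637, a difference of 10.21 (SE 0.167, limma adjusted p = 7.9e-14). KRTAP2-3 had a log2 fold change of 7.94 in VM-CUB1 and of 0.55 in 5637, a difference of 7.40 (SE 0.154, limma adjusted p = 6.6e-13). SPOCK1 had a log2 fold change of 7.58 in VM-CUB1 and of -0.52 in 5637, a difference of 8.10 (SE 0.184, limma adjusted p = 1.1e-12). SRGN did not pass in 5637 itself, while VIM and SPOCK1 fell slightly there. Among the falls, TGFBI alone passed in 5637. KRT19 had a log2 fold change of -8.88 in VM-CUB1 and of -0.19 in 5637, a difference of -8.69 (SE 0.220, limma adjusted p = 3.3e-12). TGFBI had a log2 fold change of -8.39 in VM-CUB1 and of -0.73 in 5637, a difference of -7.67 (SE 0.110, limma adjusted p = 3.2e-14). EPCAM had a log2 fold change of -8.21 in VM-CUB1 and of -0.21 in 5637, a difference of -8.00 (SE 0.115, limma adjusted p = 3.2e-14). SPP1 had a log2 fold change of -7.80 in VM-CUB1 and of -0.06 in 5637, a difference of -7.74 (SE 0.105, limma adjusted p = 2.4e-14). The genes were chosen for their size in VM-CUB1, which by itself favours a difference in that direction.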

How the data were processed

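RNA of 2 urothelial carcinoma lines was hybridised to 12 Affymetrix PrimeView arrays, of which the 6 of VM-CUB1 are described. The deposited log2 values were made by the authors in GeneSpring GX with RMA (background correction, quantile normalisation and probe summary) followed by a baseline transformation, and every probe set had a median of 0 over the 6 arrays of its line. This centring leaves differences within a line untouched and removes levels, so no filter on dim probe sets was possible. The genome build of the processing is not given in the sources used here. The number of arrays limits the precision, and no counts lie behind the values.

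Of 49395 probe sets, 102 controls were left out, and 44988 had exactly 1 gene symbol in GEO's platform annotation, 1832 had several and 2473 had none. Probe sets of a gene were averaged, giving 18132 genes. VM-CUB1_HOTAIR 20 was compared with VM-CUB1_LV with limma (version 3.58.1 in R 4.3.3), and p-values were adjusted by Benjamini-Hochberg over all 18132 genes with a threshold of 0.01. All p-values in the text are from limma unless the methods' t-test is named, which used the same values and the same adjustment. The script was tested on simulated data with known changes. Named genes were the 20 largest rises and falls and the strongest called members of 60 gene lists, and genes named outside this rule (among them CDS1, further list members, the members of chromosome stretches and the examples of disagreeing probe sets) were chosen after their values were seen. The comparison and the lists were chosen with earlier results of these data known. Alternatives were another threshold, all arrays in 1 fit, centred arrays, the median of probe sets, the methods' t-test, the replicate number as a block, leaving out each array, and leaving out 12475 probe sets whose names end in _s_at or _x_at, which may share probes with other transcripts.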

Additional observations from a re-analysis of the deposited data

Results flagged for a closer look

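By limma's interaction over all 12 arrays, log2 fold changes differed between the lines for the 4 largest rises and 4 largest falls of VM-CUB1. These genes were chosen for their size in VM-CUB1, which by itself favours a difference, and 42.0% of all genes passed this interaction. Each line had a single HOTAIR clone and a single vector clone, so differences between clones cannot be told apart from a different response to HOTAIR. The difference, VM-CUB1 minus 5637, was 10.01 for SRGN, 10.21 for VIM, 7.40 for KRTAP2-3 and 8.10 for SPOCK1. It was -8.69 for KRT19, -7.67 for TGFBI, -8.00 for EPCAM and -7.74 for SPP1. Groups of 3 arrays were too small to look for single outlying arrays.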

How the results depend on the processing

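The number of genes called ran from 5892 with the methods' t-test to 9152 at an adjusted p under 0.05, against 7536 as reported, and from 6554 to 7304 with 1 array left out. Of the 7536 calls, 6207 were made with the same sign in all 6 fits that left out 1 array, and so were all 2122 calls of at least 2-fold. The share of calls that were higher lay between 49.2% and 52.7%. Runs of neighbouring genes numbered 8, instead of 13, without probe sets that may share probes, and 12 to 15 with 1 array left out. Of 6156 values of 477 named genes under alternatives, 6084 kept direction and side of the threshold, 70 of 29 genes lost the call, and 2 changed sign: HLA-DPB1 at -0.0741 without probe sets that may share probes (1.11 as reported) and ICAM3 at -0.0869 with the median of probe sets (0.27 as reported). The cause was not tested. Of 1560 counts of list members, 62 moved by over 1.5 times. The 8 differences between the lines passed under every alternative that gave a value, and KRTAP2-3 had none without probe sets that may share probes.

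The replicate numbers did not pair the arrays: deviations of equal-numbered arrays correlated at -0.043, -0.045 and -0.003. With the replicate number as a block, 6913 genes were called, 717 calls were lost and 94 added, and 0 of the 2-fold calls were lost.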

Other observations

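The guanylate-binding genes GBP1, GBP2 and GBP3 rose together while TAP1, TAP2, PSMB8 and PSMB9, which share interferon gamma as an inducer with them, fell together. Genes of noncoding type by symbol (278 measured) were called higher in 13 cases and lower in 25, which are smaller shares than the 21.1% and 20.5% of all genes.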
